A study of Mus musculus with 6 samples.

Results

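The Polycomb repressive deubiquitinase, PR-DUB, is the complex that the ASXL proteins form with the enzyme BAP1. Transcript levels of its genes were examined in LSK cells of mice that lacked Asxl2 and of control mice. The set comprised 10 of the 24063 gene symbols in the count files, taken by name and by no cutoff on a measured value. Earlier results of these data were known when it was chosen. Its members were the scaffold genes Asxl1 and Asxl2, the catalytic subunit Bap1, the forkhead genes Foxk1 and Foxk2, Hcfc1, Ogt, the demethylase gene Kdm1b, and Mbd5 and Mbd6. All 10 were in every file, and all 10 passed the filter on low counts.

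PR-DUB removes the ubiquitin that PRC1, a Polycomb complex, places on histone H2A. BAP1 is the ubiquitin hydrolase, and it is active only when the DEUBAD domain of an ASXL protein is bound to it. ASXL1, ASXL2 and ASXL3 occupy the same place in the complex and exclude each other. FOXK1 and FOXK2 are DNA-binding proteins, HCF-1 (the product of Hcfc1) is a chromatin adaptor, OGT attaches the sugar O-GlcNAc to nuclear proteins and also to HCF-1, KDM1B removes methyl groups from histone H3, and MBD5 and MBD6 bind the complex through their methyl-CpG-binding-like domain. In blood, ASXL1, ASXL2 and BAP1 are known as regulators of stem and progenitor cells that are lost or mutated in myeloid disease.

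LSK cells are the bone-marrow cells that carry no lineage marker and do carry Sca-1 and c-Kit, and they hold the blood stem cells and early progenitors. RNA was sequenced from 3 Asxl2-/- and 3 wild-type control samples of C57BL/6 mice. Per the library titles and the study's methods, both groups carried the Mx1-cre transgene, in which an interferon-responsive promoter drives the recombinase, both had been injected with pIpC, a synthetic RNA that induces it, weeks before the cells were sorted, and the Asxl2-/- group was homozygous for an allele with loxP sites around exon 11. The allele is therefore removed in every cell type in which the promoter is induced, and neither the share of cells that recombined nor the age of the mice is given in the labels. In bulk RNA, fewer cells of a type and less RNA per cell cannot be told apart, and the p-values below measure the spread between these samples.

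The files were of 2 kinds. Asxl2-/- replicates 1 and 3 and control replicate 2 were deposited as counts per transcript (gene-count files). Asxl2-/- replicate 2 and control replicates 1 and 3 were deposited as counts per exon (exon-count files). In the latter a read across a splice junction may add to each exon it touches, but how these counts were made is not given. Totals over genes were 25528540 to 29136012 in the gene-count files and 53147729 to 55032075 in the exon-count files. The kind of file was a covariate in the fit, and levels are given within each kind. The labelled sort was checked with 6 genes of the LSK gate, whose summed level was 1051 to 1377 CPM (counts scaled to the library total) in Asxl2-/- and 975.5 to 1116 in control libraries. Among them Slamf1 was higher in Asxl2-/- cells by the edgeR test, while Ly6a, which encodes Sca-1, was at 52.6 to 69.1 CPM in Asxl2-/- libraries and at 40.5, 259.8 and 147.7 in control replicates 1, 2 and 3 (adjusted p = 0.187). Markers of other cells moved with the groups. Of 5 B-cell genes, 4 were higher in Asxl2-/- cells by the same test (summed level 110 to 120.5 against 32.5 to 47.5 CPM), as were 2 of 5 megakaryocyte genes (194 to 481 against 109 to 269). None of the 5 T- and NK-cell (8.18 to 9.62 against 10 to 19 CPM), 5 myeloid (1956 to 5328 against 2050 to 6313), 5 erythroid (109 to 162 against 195 to 297) and 5 endothelial and stromal genes (215 to 390 against 125.5 to 248.5) passed the test, and the endothelial gene Cdh5 was at 0.35 to 0.96 and 0.13 to 0.46 CPM. Xist was at 1071 to 2351 CPM in the Asxl2-/- libraries and at 13 to 61.3 in the controls, and 4 Y-linked genes were at 0.07 CPM or less against 32.7 to 101 CPM. Genotype and sex can therefore not be told apart in these libraries, which bears on every value below and most directly on Hcfc1 and Ogt, both on the X chromosome. The part of these cell markers in the results was not tested.

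Asxl2 was the targeted gene and is described first. Its transcript (NM_001270988, mm10 chromosome 12, 3426857 to 3506849) has 12 exons with a summed length of 9033 bases. The floxed exon 11 lies at 3496225 to 3496936 and is 712 bases long. The letters where exon 11 meets its neighbours are shown because the change in the knockout lies between them. They were read from the GENCODE vM1 transcript of Asxl2 (build NCBIM37, in the sense of the transcript), whose exons have the same lengths as exons 4 to 12 here, and capitals mark bases of exon 11. The last of these lines joins exon 10 to exon 12 as a transcript without exon 11 would.
Exon 10 to exon 11: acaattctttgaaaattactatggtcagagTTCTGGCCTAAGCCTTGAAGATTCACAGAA
Exon 11 to exon 12: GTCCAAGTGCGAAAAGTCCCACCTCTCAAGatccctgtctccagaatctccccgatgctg
Exon 10 to exon 12: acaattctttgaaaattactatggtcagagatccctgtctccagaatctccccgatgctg

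Read as codons, the length of exon 11 leaves a remainder of 1 base when divided by 3. In the full coding sequence 383 complete codons precede exon 11 and 1418 codons precede the stop, and exon 11 makes up 16.7% of that sequence. In the joined sequence the frame shifts and runs for 173 more codons, the split codon included, to a stop after 556 codons, within the first 520 bases of exon 12. These counts come from the letters alone. No reads across a junction were given, so the joined transcript itself was not observed.

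Exon 11 was nearly absent from the Asxl2-/- library that resolves exons, while the rest of the transcript was present at a level at or above that of the controls. Divided by its length, exon 11 was at 0.739 CPM per kilobase in Asxl2-/- replicate 2, 12.3 in control replicate 1 and 14.6 in control replicate 3. Its share of Asxl2 counts was 5.25% of the pooled control share (95% interval 3.61 to 7.63), with 28 counts left of 4804. The other 11 exons together held 4776, 3976 and 3613 counts in the same 3 libraries, or 89.7, 76.3 and 76.2 CPM, so the knockout library was 0.24 higher on the log2 scale, or 17.7%. An excess of that size is common in this library. There 28.5% of all tested genes were at least 0.2 above the mean of the controls and also above each control. On the 5′ side, exons 1 to 10 were at 20.6, 16.9 and 17.2 CPM per kilobase, and on the 3′ side exon 12 was at 8.71, 7.53 and 7.47. Exons 1 to 10 held 33.3%, 32.1% and 32.7% of the counts outside exon 11, so the balance of the transcript on either side of exon 11 was close to the same in the 3 libraries. Had only exon 11 been lost, the total would have fallen by 0.17 on the log2 scale.

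**Figure D1:**
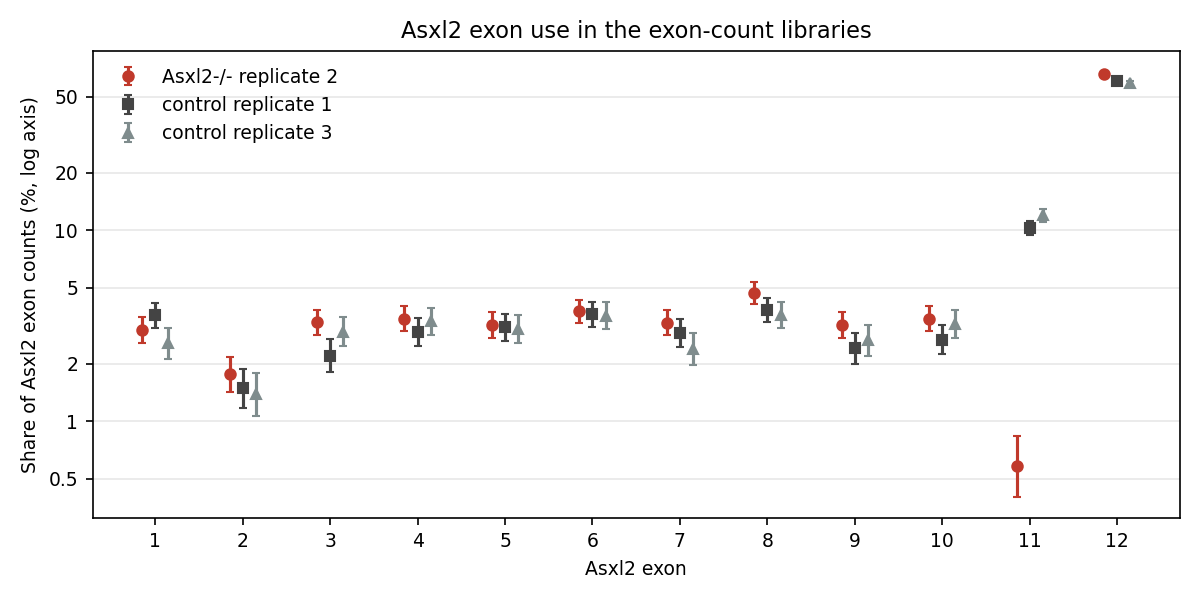
Share of all Asxl2 exon counts in each of the 12 exons (%, log axis) in the 3 libraries with exon counts, with Wilson 95% intervals that cover counting error only. Exon 11 stands at 0.583% in Asxl2-/- replicate 2 and at 10.3% and 12% in the controls, while exons 1 to 10 lie between 1.39% and 4.7% in every library. Loss of exon 11 from the total raises the shares of the other exons in Asxl2-/- replicate 2.

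RefSeq lists a shorter Asxl2 transcript that lacks exon 7 (3476026 to 3476169, 144 bases). Exon 7 was read in all 3 libraries, with 158 counts in Asxl2-/- replicate 2, 129 in control replicate 1 and 98 in control replicate 3. Its log2 ratio of shares, knockout to pooled controls, was 0.31, against 0.29 between the controls themselves. The 2 ratios are not alike, because the shares are taken of a total that includes exon 11. Loss of exon 11 alone would change that total by -0.17 on the log2 scale. It thereby raises the share of every other Asxl2 exon in the knockout library, which does not enter the ratio between the controls. The gene-count files give no exon counts, so the deletion was seen in 1 of the 3 Asxl2-/- libraries and could not be checked in the other 2.

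The members differed in level far more than any of them differed between the groups. Levels between genes are compared as CPM per kilobase of summed exon length (CPM per kb). Hcfc1 and Ogt led in the gene-count files, at 55.7 ± 4.3 and 50.7 ± 3.2 (SD, n = 3 libraries of both groups), and their ranges overlapped. Bap1 followed at 33.6 ± 1.6, apart from both neighbours in the order. Asxl1 (23.6), Foxk2 (22.2), Kdm1b (21.6) and Mbd6 (20.9) each overlapped the next. Asxl2 was at 14.7 ± 1.6, Foxk1 at 12.2 ± 0.21 and Mbd5 at 2.89 ± 0.52, with no overlap between these 3. In the exon-count files Hcfc1 stood alone at 58.7 ± 6.7. Ogt (42.5) and Bap1 (40.8) overlapped, as did Foxk2 (20.4), Mbd6 (19.3) and Asxl1 (19.1). Kdm1b (14.8), Asxl2 (9.67), Foxk1 (8.75) and Mbd5 (2.21) closed the order, each apart from the next. Averaged over the kinds of file, Hcfc1 lay at the 88.5th percentile of the genes tested, Bap1 at the 81.4th, Asxl1 at the 69.3rd, Asxl2 at the 55.3rd and Mbd5 at the 27.6th. Where a junction read adds to each exon it touches, summed exon counts favour genes with many short exons over genes with 1 long exon. The order in the exon-count files and the averaged percentiles carry this limit.

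**Figure D2:**
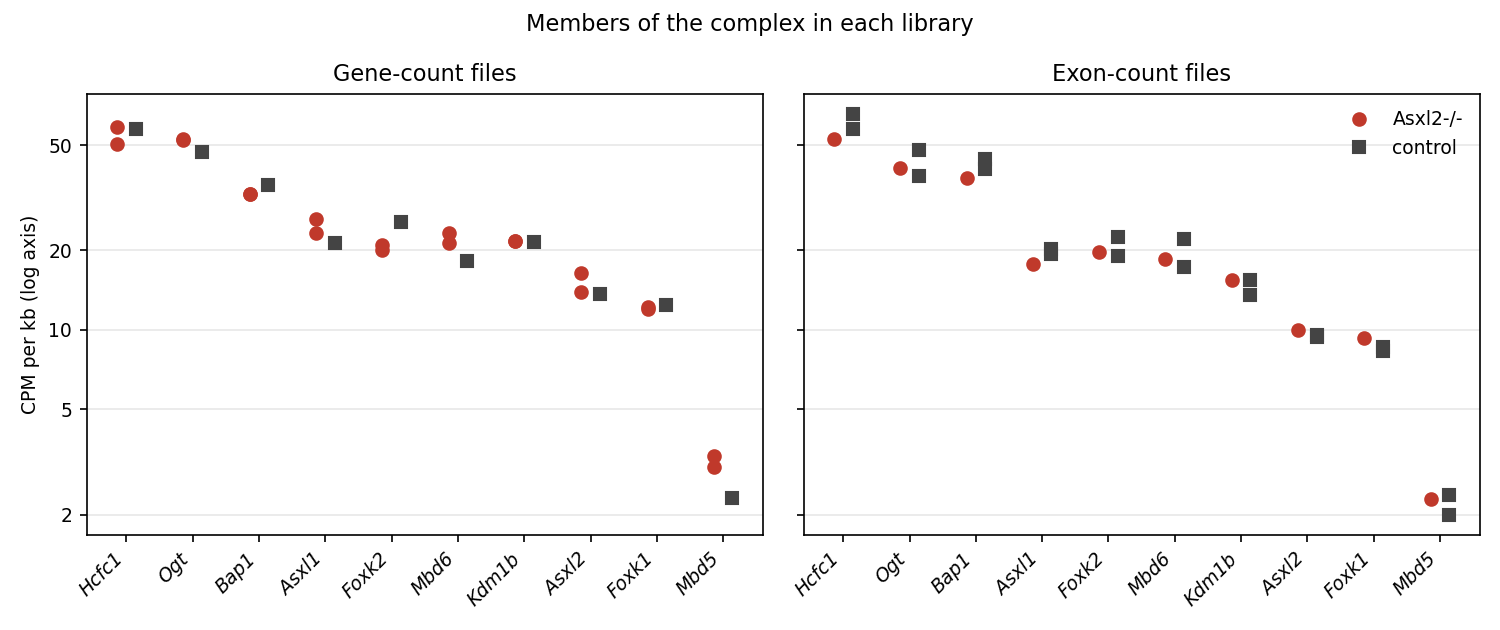
Level of each member in each library, as CPM per kb (log axis), with the gene-count files on the left and the exon-count files on the right; circles are Asxl2-/- and squares are control libraries. Hcfc1, Ogt and Bap1 lie at 32.7 or above, Mbd5 at 3.32 or below, and the symbols of the groups lie close together for every member.

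Whether loss of Asxl2 was accompanied by a change in the rest of the complex was then tested with edgeR over all 14145 genes that passed the filter. None of the 10 members passed the adjusted threshold of 0.05, and none had an unadjusted p under 0.05. Over all genes, 331 passed (2.34%; 288 or 2.04% raised and 43 or 0.304% lowered), and 27.7% had an unadjusted p under 0.05. The median log2 fold change of the members was 0.04 and the median of its absolute value 0.11, against 0.00 and 0.24 over all genes tested. Of the members, 7 were higher and 3 were lower in Asxl2-/- cells, and the sign was the same in both kinds of file for 6 of 10, against 68.1% of all genes. The 95% intervals of all 10 lay within a log2 fold change of 0.65 in either direction, with the lowest bound at 0.73-fold (Foxk2) and the highest at 1.54-fold (Mbd5). The interval of each member, given below, shows the sizes of change that these libraries leave possible. No member passed in DESeq2 either, although 16.3% of all genes did, and none passed when a replicate block was added to the fit, which left 1 residual degree of freedom and in which 36.6% of all genes did.

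**Figure D3:**
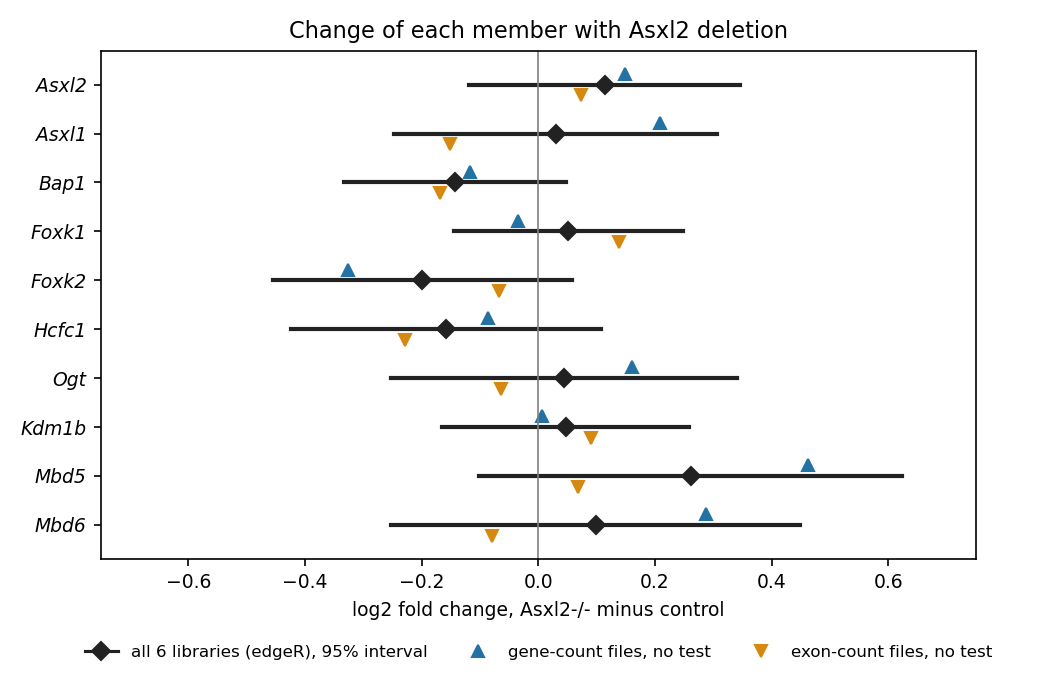
Log2 fold change of each member, Asxl2-/- minus control: diamonds with 95% intervals from edgeR over all 6 libraries, and triangles for the gene-count and the exon-count files alone, which carry no test. Every interval includes 0, and the triangles lie on opposite sides of 0 for Asxl1, Foxk1, Ogt and Mbd6.

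Among the core genes, the total of Asxl2, whose product holds and activates BAP1, was at 13.9, 9.99 and 16.4 CPM per kb in Asxl2-/- replicates 1, 2 and 3 and at 9.42, 13.6 and 9.58 in control replicates 1, 2 and 3. Within the gene-count files both Asxl2-/- libraries were above the control, and within the exon-count files the Asxl2-/- library was above both controls. The log2 fold change was 0.11 (SE 0.095, 95% interval -0.12 to 0.35, edgeR adjusted p = 0.469). Asxl1, the paralog that can take its place, was at 23.3, 17.8 and 26.3 in Asxl2-/- and at 20.2, 21.4 and 19.5 in control cells. It was above the control in the gene-count files and below both controls in the exon-count files, by 0.21 and -0.15 on the log2 scale, and the fitted change was 0.03 (SE 0.114, interval -0.25 to 0.31, adjusted p = 0.893). At the top of the interval Asxl1 would be 1.24-fold higher.

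Bap1 (NM_027088, chromosome 14, 31251489 to 31259929, 17 exons), the ubiquitin hydrolase, was at 32.7, 37.7 and 32.7 in Asxl2-/- and at 40.6, 35.4 and 44.2 in control cells. Every Asxl2-/- library was below the controls of its own kind. With the effect of the kind of file taken out, the groups did not overlap, at 6.91 ± 0.015 and 7.05 ± 0.062 log2 CPM (SD, n = 3 each). Bap1 was the only member of which this held, and 44.4% of all genes tested showed the same. The log2 fold change was -0.14 (SE 0.078, interval -0.33 to 0.05, edgeR adjusted p = 0.277), a 0.906-fold level.

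Of the forkhead genes, Foxk1 (NM_199068, chromosome 5, 142401497 to 142462015, 9 exons) was at 12, 9.32 and 12.2 CPM per kb in Asxl2-/- and at 8.32, 12.4 and 8.62 in control cells. Its change was smaller than the spread between libraries, at 0.05 on the log2 scale (SE 0.081, interval -0.15 to 0.25, edgeR adjusted p = 0.713). Foxk2 (NM_001080932, chromosome 11, 121259987 to 121309896, 9 exons) was at 20, 19.8 and 20.9 in Asxl2-/- and at 19.1, 25.6 and 22.5 in control cells. It was below the control in the gene-count files and between the controls in the exon-count files. The log2 fold change was -0.20 (SE 0.105, interval -0.45 to 0.06, adjusted p = 0.266). When single libraries were left out it ranged from -0.33 (without Asxl2-/- replicate 2) to -0.07 (without control replicate 2), and its smallest adjusted p was 0.087 (at -0.27, without control replicate 1).

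Hcfc1 (NM_008224, X chromosome, 73942792 to 73966357, 26 exons) had the most counts of the set, 11621 to 25425 per library. It was at 50.7, 52.6 and 58.5 CPM per kb in Asxl2-/- and at 57.6, 57.8 and 65.9 in control cells, and the highest Asxl2-/- value was above the lower 2 control values. The log2 fold change was -0.16 (SE 0.109, interval -0.42 to 0.11, edgeR adjusted p = 0.379). Ogt (NM_139144, X chromosome, 101640051 to 101684351, 22 exons) was at 53, 41 and 52.2 in Asxl2-/- and at 48.1, 47.1 and 38.3 in control cells. Ogt lay above the control in the gene-count files and between the controls in the exon-count files, with a log2 fold change of 0.04 (SE 0.122, interval -0.25 to 0.34, adjusted p = 0.85). Sex could not be separated from genotype for either gene.

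Kdm1b (NM_172262, chromosome 13, 47043499 to 47085279, 21 exons) was at 21.7, 15.4 and 21.6 CPM per kb in Asxl2-/- and at 13.5, 21.6 and 15.4 in control cells. The log2 fold change was 0.05 (SE 0.087, interval -0.16 to 0.26, edgeR adjusted p = 0.761). The value is uncertain, because 513 of its 4987 bases are shared with exons of Dek, which lies on the same stretch, and the libraries keep no strand. The exon that holds the shared bases, exon 21, makes up 48.2% of the length and took 70.5%, 69.6% and 72.5% of the Kdm1b counts in Asxl2-/- replicate 2 and control replicates 1 and 3. Dek was at 503, 439 and 523 CPM in these libraries. The other 20 exons of Kdm1b were at 22.6, 20.5 and 21.2 CPM, so without exon 21 the difference was 0.12 on the log2 scale.

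Mbd5 and Mbd6 are related to each other in sequence but were far apart in level. Mbd5 (NM_029924, chromosome 2, 48949508 to 49317069, 17 exons) had 660, 856 and 608 counts in Asxl2-/- and 870, 468 and 669 in control cells, or 3.32, 2.28 and 3.04 against 2.37, 2.3 and 2 CPM per kb. Its change had the largest absolute size of the set in this fit, 0.26 on the log2 scale (SE 0.149, interval -0.10 to 0.62, edgeR adjusted p = 0.294), and 53.2% of all genes tested had a smaller one. It ranged from 0.06 without control replicate 2 to 0.46 without Asxl2-/- replicate 2. With the length trend removed it was 0.13, less in size than Hcfc1 (-0.31) and Foxk2 (-0.30) in that fit. Its change was 0.46 within the gene-count and 0.07 within the exon-count files, and in the latter the Asxl2-/- value lay between the controls. Mbd6 (NM_033072, chromosome 10, 127281956 to 127288771, 13 exons) was at 23.3, 18.5 and 21.3 in Asxl2-/- and at 22.1, 18.3 and 17.2 in control cells. It was above the control in the gene-count files and between the controls in the exon-count files, with a log2 fold change of 0.10 (SE 0.144, interval -0.25 to 0.45, adjusted p = 0.692).

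The balance within pairs of members was compared as a log2 ratio of levels per length within each library, which does not depend on library scaling. In all 6 ratios were computed, each tested with an exact two-sided permutation test over the 6 libraries. The smallest possible p is 0.1, so none could reach 0.05. The test takes no account of the kind of file, which is unevenly spread over the groups. Its p-values and the differences over all 6 libraries therefore mix the kind of file with the group. The ratio of Asxl1 to Asxl2, the scaffolds that compete for BAP1, was 0.75, 0.84 and 0.68 in Asxl2-/- and 1.10, 0.65 and 1.02 in control libraries. The groups overlapped over the 6 libraries, with a mean difference of -0.17 (exact permutation p = 0.4, 0.4 adjusted over the ratios), which was -0.22 in the exon-count files and 0.06 in the gene-count files. Asxl1 thus exceeded Asxl2 per length in all 6 libraries. Asxl2 enters these ratios with its total over all exons, which loss of exon 11 lowers (log2 change -0.17 if only that exon were lost). Where exon 11 is lost, the ratios to Asxl2 are therefore raised, by more than the 0.06 in the gene-count files. A transcript without exon 11 would also shift frame, so these RNA ratios do not measure the balance of working scaffolds. The ratio of Bap1 to Asxl2 was 1.24, 1.92 and 0.99 against 2.11, 1.38 and 2.20, a difference of -0.52 (exact permutation p = 0.2, adjusted 0.36). Within a kind of file the difference was -0.27 (gene-count) and -0.24 (exon-count), as the ratio was 0.99 to 1.38 in the gene-count files and 1.92 to 2.20 in the exon-count files. Bap1 to Asxl1 differed by -0.35 (p = 0.3 by the exact test), with -0.33 and -0.02 within the gene-count and exon-count files. Foxk1 to Foxk2 differed by 0.34 (exact p = 0.2), with 0.29 and 0.21 within the kinds of file. Mbd5 to Mbd6 differed by 0.23 (exact p = 0.2; 0.18 and 0.15 within) and Hcfc1 to Ogt by -0.29 (exact p = 0.3; -0.25 and -0.17 within). Over all 6 libraries every ratio overlapped between the groups. Within each kind of file, however, the Asxl2-/- and control values did not overlap, on the same side in both kinds, for 3 of the 6: Bap1 to Asxl2 was lower, and Foxk1 to Foxk2 and Mbd5 to Mbd6 were higher, in the Asxl2-/- libraries. These within-kind comparisons set 3 libraries side by side and carry no test. The same count was not made for pairs of other genes, so 3 of 6 has no background share. By a different measure, 44.4% of single genes did not overlap between the groups once the file kind was removed. The ratios also share genes, as Bap1, Asxl1 and Asxl2 recur in them.

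Exon use was compared for all members in the exon-count libraries, to see whether any other transcript changed in structure. The members have 158 exons, of which 152 had at least 50 counts in the pooled controls. With 1 Asxl2-/- library there is no test, and an exon was marked where its share of the transcript differed by a log2 ratio of 1 or more. Asxl2 exon 11 was the only member exon marked, at -4.25, against 0.134% (148) of 110307 exons over all genes and 0.102% (112) between the control libraries. By this rule 62 of the 110307 exons were at or under -4.25. The rule set no minimum for the exon's counts in the knockout library, however. Exons without a count, in genes nearly silent there, can therefore enter both the 62 and the 148. The Y-linked genes Eif2s3y, Kdm5d and Uty, for example, were at 0.04, 0.02 and 0.04 CPM in Asxl2-/- replicate 2. How many of the 62 were such exons was not counted. The other 151 member exons lay between -0.43 and 0.49. Those of Asxl2 among them were raised by the loss of exon 11 from its total. Their extremes were exon 2 of Mbd5 (-0.43), exon 6 of Foxk1 (-0.42), exon 12 of Kdm1b (0.42) and exon 1 of Mbd6 (0.49). Between the control libraries the same exons were at -0.18, -0.08, 0.40 and 0.07, in that order. Other exons reached 0.74 (exon 6 of Mbd5) and 0.62 (exon 17 of Kdm1b) between the controls. Exon 6 of Foxk1 and exon 1 of Mbd6 lay outside the range between the controls for their genes (-0.12 to 0.07 and -0.17 to 0.195). The spread of the knockout ratios was narrowest in Foxk2, from -0.11 to 0.08. In Bap1 the 17 exons lay between -0.24 and 0.26, in Asxl1 the 12 exons between -0.11 and 0.20, in Ogt the 22 between -0.18 and 0.16, and in Hcfc1 the 26 between -0.16 and 0.24. The last exon of Asxl1, which holds most of the coding sequence of the gene, took 55.6%, 56.1% and 56.1% of its counts in Asxl2-/- replicate 2 and control replicates 1 and 3.

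**Figure D4:**
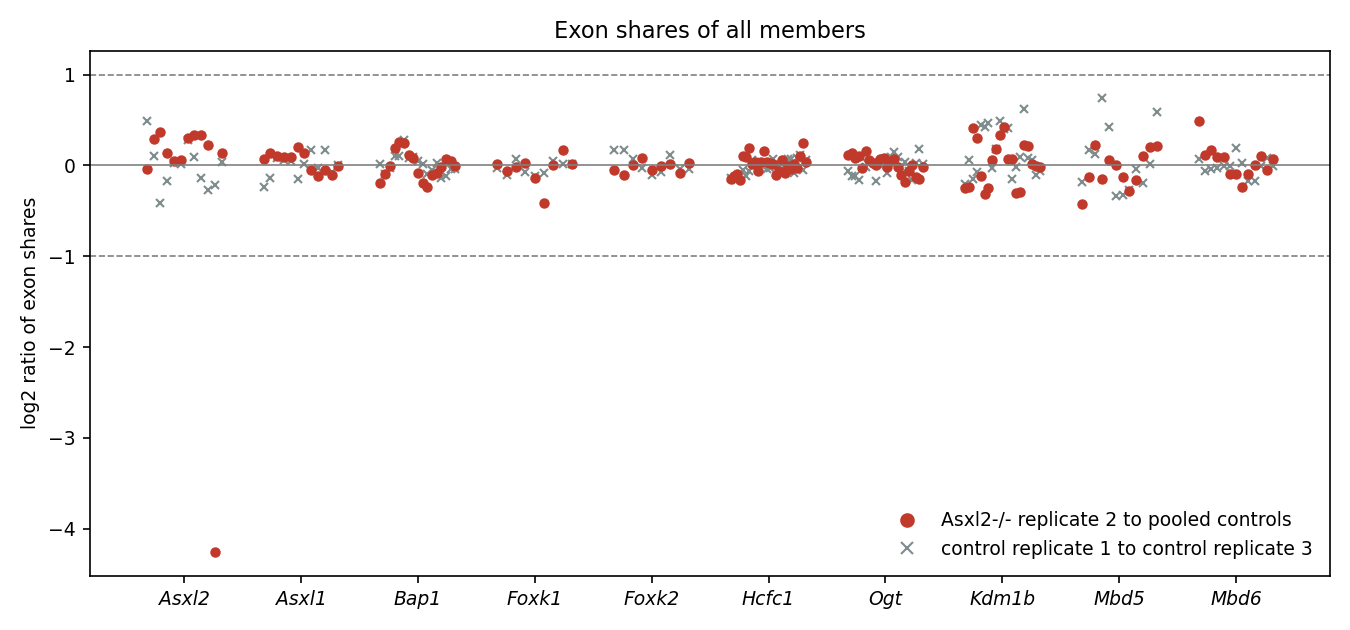
Log2 ratio of the share of each exon in its transcript, for the 152 exons with at least 50 counts in the pooled controls, from 5′ to 3′ within a gene: circles compare Asxl2-/- replicate 2 with the pooled controls, crosses compare the control libraries with each other, and dashed lines mark a ratio of 1 in either direction. Asxl2 exon 11 at -4.25 is the only plotted point beyond the lines. The circles of the other Asxl2 exons are shifted up by the loss of exon 11 from the total.

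Genes that share a role with the members were counted in the same fit. None of the 41 tested genes in 5 lists passed the threshold. Of 13 other deubiquitinases of H2A and H2B and their cofactors, 6 had a positive and 7 a negative log2 fold change (median -0.11), and the smallest p was that of Usp36, a nucleolar deubiquitinase, at -0.38 (SE 0.115, edgeR adjusted p = 0.112). Of 6 genes of the UCH family, to which BAP1 belongs, and of the DEUBAD domain, 5 were tested and all 5 were negative (median -0.04). The smallest p in that list belonged to Adrm1, a proteasomal ubiquitin receptor that activates UCHL5 through its own DEUBAD domain, at -0.46 (SE 0.108, adjusted p = 0.0761). Asxl3, the remaining ASXL paralog, had at most 3 counts in a library and was not tested. In the O-GlcNAc cycle, 6 genes were tested with 3 in each direction (median 0.00), led by Mgea5, which encodes the enzyme that removes the sugar OGT adds, at 0.35 (SE 0.135, adjusted p = 0.162). Oga is the current symbol of Mgea5 and was not in the files.

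Partners of HCF-1, BAP1 and the KDM1 enzymes numbered 11, with 4 positive and 7 negative values (median -0.03). Hcfc1r1, whose product binds the beta-propeller of HCF-1, had the smallest p, at -0.28 (SE 0.097, edgeR adjusted p = 0.135). Of 6 relatives of Mbd5 and Mbd6, 2 were positive and 4 negative (median -0.11), and Mbd3, a subunit of the NuRD deacetylase complex, had the smallest p, at -0.41 (SE 0.0937, adjusted p = 0.0753). With the replicate block added, 9 of the 41 passed (3 higher, 6 lower). That fit left 1 residual degree of freedom, and 36.6% of all genes passed in it. At an unadjusted p under 0.05 in the edgeR fit without the block there were 7 of these 41 genes, 3 higher and 4 lower. This is 17.1% beside the 27.7% of all genes. DESeq2 placed 3 of the 41 past the threshold, all lower: Adrm1 (-0.51, adjusted p = 0.00535), Mbd3 (-0.46, adjusted p = 0.00271) and Usp36 (-0.42, adjusted p = 0.0261). Over all genes DESeq2 placed 16.3% there.

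The genes most like the core members in their pattern over the 6 libraries were found as those with the smallest root mean square difference of log2 CPM, each gene being centred within its kind of file, among 10493 genes with 100 counts or more in all libraries. For Asxl2 they were 0610010F05Rik (0.015), Vps13a (0.022) and Zfp952 (0.022), for Asxl1 they were Tmem57 (0.0085), Sertad2 (0.019) and A730008H23Rik (0.025), and for Bap1 they were Irf3 (0.0078), Mir8094 (0.0079) and Dcaf15 (0.0095). The members themselves spanned 0.27, 0.30 and 0.23 over the same centred values. With 6 libraries and this many candidates, close matches are to be found for any gene, and they are given as a description only.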

How the data were processed

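RNA of LSK cells from 3 Asxl2-/- and 3 control mice was sequenced as unstranded poly(A) libraries. The authors deposited raw read counts on mm10 with RefSeq transcripts, 3 files with a count per transcript (33068 lines) and 3 with a count per exon (317548 lines). The submitters' processing notes name STAR, featureCounts and DESeq2 with no versions or roles, and the study's methods name Cuffdiff. The transcript with the longest summed exons stood for each symbol, and its exon counts were summed.

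Counts were tested with edgeR 4.0.16 in R 4.3.3 (quasi-likelihood test, TMM scaling, filterByExpr, file kind plus group, 3 residual degrees of freedom), and p-values were two-sided and adjusted by the Benjamini-Hochberg method over the 14145 genes tested, with a threshold of 0.05. DESeq2 1.42.0 was an alternative. SEs were derived from the F statistic. Adjusted log2 CPM values (prior count 2) had the effect of the file kind removed with limma 3.58.1, which makes their SDs somewhat too small. Levels used TMM-scaled totals. Exon shares used exons with at least 50 counts in the pooled controls. Intervals and shares cover counting error only. Ratios were tested with scipy 1.17.1 in Python 3.11.15. Scripts were tested on simulated data. Every pair of libraries differed by more than sampling noise (lowest chi-square per degree of freedom 25.5), and each was counted as a sample.

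All members were named, and from each list the genes past the threshold or otherwise the gene with the smallest p. Members, lists and tests were chosen with earlier results of these data known. Exon sequences came from GENCODE vM1 (NCBIM37), and coordinates from the mm10 files only.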

Additional observations from a re-analysis of the deposited data

How the results depend on the processing

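No member passed the threshold in any of the 19 fits of all genes, the smallest adjusted p being 0.0864 (Mbd5). The number of all genes past it was far less stable. It was 331 in edgeR, 2302 with DESeq2, 161 with library size only, and 9 to 1312 when each library was left out in turn (9 without control replicate 3, 16 without Asxl2-/- replicate 1, 96 without Asxl2-/- replicate 3, 124 without control replicate 2, 659 without Asxl2-/- replicate 2 and 1312 without control replicate 1). The cause was not tested. Among the 41 genes in the pathway lists, 0 passed in edgeR, 3 in DESeq2 (Adrm1, Mbd3 and Usp36, all lower), and 0 to 2 when a library was left out (Adrm1 and Mbd3 without control replicate 1).

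Bap1, Foxk2 and Hcfc1 were lower and Mbd5 was higher in every fit that held them. Members with small changes turned sign. With DESeq2, Asxl1 was at -0.0173, Ogt at -0.00405 and Kdm1b at -0.000855, and with median-ratio scaling at -0.0171, -0.00395 and -0.001. With the trend of counts with transcript length removed, Asxl1 was at -0.0974, Asxl2 at -0.0451, Foxk1 at -0.0876, Ogt at -0.0619 and Kdm1b at -0.052. All 10 members are longer than the median tested gene (2753 bases). In the gene-count files alone Foxk1 was at -0.0355, and in the exon-count files alone Asxl1 was at -0.151, Ogt at -0.064 and Mbd6 at -0.079. Over the leave-one-out fits, Asxl1 ranged from -0.148 to 0.211, Foxk1 from -0.0355 to 0.142, Mbd5 from 0.0642 to 0.464, Ogt from -0.0722 to 0.16 and Mbd6 from -0.0893 to 0.289. The Asxl1 to Asxl2 ratio differed by 0.0597 in the gene-count files. Asxl2 exon 11 remained the only member exon marked under all 5 alternatives.

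Whether the replicate numbers pair the libraries was not settled. The correlations across genes of the deviations of same-numbered libraries from their group means were 0.294, -0.00766 and -0.00277, and not every library correlated best with its own number. With the effect of the file kind removed they were 0.635, 1 and 0.388, each the highest of its library, but replicate 2 of each group is the only one of its kind there, so the fit itself sets the value of 1 and bears on the others. The labels give no source for a pairing, so the fit without the block was kept. A fit with both a replicate block and the file kind left 1 residual degree of freedom. In it 5179 genes passed (36.6% of those tested), with 9 list genes (3 higher, 6 lower) and 0 members. With the replicate block alone, 380 genes and 0 members passed.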
